A study of Homo sapiens with 4 samples.

Results

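DNMT1, UHRF1, HELLS, DNMT3A, DNMT3B, EHMT1, EHMT2, SUV39H1, SUV39H2 and CBX5 write, maintain and read DNA methylation and methylation of lysine 9 of histone H3 (H3K9). These 10 genes, of 20037 protein-coding genes in the RefSeq gene table of GRCh38.p14, were chosen by name, and every peak from 5 kb before to 5 kb past each gene was taken. CHAF1A was profiled by CUT&Tag in RBE, a human cell line from intrahepatic cholangiocarcinoma (cancer of the bile ducts inside the liver), with 4 samples: 2 that received a control siRNA and 2 that received an siRNA against CHAF1A, all harvested 48 hours after transfection. CHAF1A is the large subunit of CAF-1, the chaperone that places new histones on replicated DNA, and CUT&Tag uses an antibody to tether a transposase, which cuts and tags the DNA nearby. The authors deposited 2 peak lists, 1 per group, so differences between them could not be set against the spread of replicates and were not tested. Their names, NC and si, were taken to mean the control siRNA and the CHAF1A siRNA, and how far CHAF1A was reduced was not analysed here.

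The marks that these genes govern keep repeated DNA and transposable elements silent. During replication UHRF1 binds half-methylated DNA and brings DNMT1 to copy the methylation to the new strand, and HELLS, a remodeller of the SNF2 family, opens nucleosomal DNA to this machinery. DNMT3A and DNMT3B set new methylation. EHMT1 and EHMT2 (GLP and G9a) work as a pair that adds the first methyl groups to H3K9, SUV39H1 and SUV39H2 add the last, and CBX5 (HP1 alpha) binds the trimethylated lysine and compacts chromatin. CAF-1 is known to bind HP1 proteins.

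The control list held 76313 peaks and the siRNA list 97653, counted on chromosomes 1 to 22, X and Y. Fold enrichment is the authors' value, the number of overlapping fragments at the summit over the local background of the same list. From the deposited fold and p, the pileup (overlapping reads at the summit) and its background were solved for each peak. The background of the whole genome was 6.34 reads in the control list and 8.49 in the siRNA list (ratio 1.34). Pileups are compared after division by these values, and the read totals of the libraries were not analysed here. Without an untargeted library, CHAF1A cannot be told apart from open chromatin that the transposase can enter. As a check of the cells, all 8 cholangiocyte markers had a peak in their windows in each list, against 82.3% and 85.0% of protein-coding genes. Of 7 markers of other cells 4 had a control and 3 a siRNA peak. PECAM1, COL1A1 and RBFOX3 had one in both lists, PTPRC in the control list alone, and ALB, APOA1 and CD3E in neither. Within 1 kb of an annotated start, KRT8 had a peak in both lists, CFTR in neither and RBFOX3 in the siRNA list alone. With so few markers and such high shares over all genes, the check says little about cell identity. A peak is not RNA, and no expression was analysed here.

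Promoters under the strongest peak and under no peak are shown first. Each runs from 250 bases before an annotated start to 50 from it on, 300 bases in all, read 5′ to 3′ on the gene's strand from RefSeq (GRCh38.p14). In the first 3, the genes that maintain DNA methylation, capitals mark matches on either strand to the E2F-type letters TTTCCCGC, TTTGGCGC, TTTCGCGC or TTTGCCGC. E2F factors drive genes of S phase. The motifs were chosen after the peaks were known.
HELLS, chr10:94545538-94545837, plus strand: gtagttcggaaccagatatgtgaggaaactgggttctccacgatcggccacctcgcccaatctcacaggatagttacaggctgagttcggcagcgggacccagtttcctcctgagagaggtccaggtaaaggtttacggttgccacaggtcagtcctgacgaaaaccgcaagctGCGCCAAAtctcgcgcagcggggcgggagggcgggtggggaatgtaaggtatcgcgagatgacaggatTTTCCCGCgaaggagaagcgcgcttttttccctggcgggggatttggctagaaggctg
DNMT1, chr19:10194904-10195203, minus strand: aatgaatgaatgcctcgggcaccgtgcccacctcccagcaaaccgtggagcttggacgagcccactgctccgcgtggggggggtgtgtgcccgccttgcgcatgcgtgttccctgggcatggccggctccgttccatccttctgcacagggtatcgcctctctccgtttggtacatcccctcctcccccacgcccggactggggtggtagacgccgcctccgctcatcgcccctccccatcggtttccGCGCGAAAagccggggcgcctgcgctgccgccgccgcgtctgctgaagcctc
UHRF1, chr19:4909251-4909550, plus strand: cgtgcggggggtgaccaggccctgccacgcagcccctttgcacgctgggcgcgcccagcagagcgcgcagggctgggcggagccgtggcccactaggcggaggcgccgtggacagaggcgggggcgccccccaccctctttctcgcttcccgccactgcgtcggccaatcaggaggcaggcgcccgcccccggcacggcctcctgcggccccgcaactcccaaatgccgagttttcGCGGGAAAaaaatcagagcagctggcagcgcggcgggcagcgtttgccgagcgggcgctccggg

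Among the 20 promoters of the 10 genes, 4 held these letters, and they belonged to HELLS, DNMT1 and UHRF1, the maintenance genes. Of 22175 promoters of protein-coding genes, 4.1% held them. Across all promoters that held them, 67.3% were overlapped by a control peak and 66.8% by a siRNA peak, against 48.3% and 49.4% of all promoters. The letters did not go with a peak in all 3 genes: the HELLS promoter lay whole under a peak in each list, the DNMT1 promoter had 225 of its bases under control peaks and 300 under a siRNA peak, and the UHRF1 promoters had none in either list.

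The next promoters are those of EHMT1 and CBX5, where fold enrichment at a start differed most between the lists, and 1 of DNMT3B. The DNMT3B promoter shown, the only one in the RefSeq promoter table, is poor in CpG. Its start at 32779852 lies inside the gene, which begins at 32762385. The sequence at that 5′ end was not examined. In EHMT1 and CBX5 capitals mark the NRF1-type letters GCGC and TGCGC with 1 base of any kind between them, on either strand, and in DNMT3B they mark CpG.
EHMT1, chr9:137618755-137619054, plus strand: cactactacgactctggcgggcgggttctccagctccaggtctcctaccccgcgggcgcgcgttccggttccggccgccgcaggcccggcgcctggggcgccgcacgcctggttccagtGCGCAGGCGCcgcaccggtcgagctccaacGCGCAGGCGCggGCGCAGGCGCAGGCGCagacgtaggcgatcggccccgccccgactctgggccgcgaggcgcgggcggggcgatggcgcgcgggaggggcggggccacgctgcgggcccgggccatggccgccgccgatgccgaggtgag
CBX5, chr12:54280073-54280372, minus strand: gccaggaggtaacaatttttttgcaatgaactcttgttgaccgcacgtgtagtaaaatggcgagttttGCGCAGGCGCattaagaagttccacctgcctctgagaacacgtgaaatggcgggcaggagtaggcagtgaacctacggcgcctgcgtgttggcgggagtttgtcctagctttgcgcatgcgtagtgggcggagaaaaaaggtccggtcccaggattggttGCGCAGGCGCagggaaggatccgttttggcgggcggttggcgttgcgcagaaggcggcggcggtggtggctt
DNMT3B, chr20:32779602-32779901, plus strand: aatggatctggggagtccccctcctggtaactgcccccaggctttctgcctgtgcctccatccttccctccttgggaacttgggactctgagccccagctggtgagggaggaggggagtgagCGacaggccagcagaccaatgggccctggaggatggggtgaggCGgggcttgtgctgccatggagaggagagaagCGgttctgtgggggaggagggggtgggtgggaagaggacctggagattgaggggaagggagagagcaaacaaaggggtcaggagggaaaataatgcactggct

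The NRF1-type letters were in 6 of the 20 promoters, of DNMT1, UHRF1, EHMT1, SUV39H2 and CBX5, and in 7.39% of all promoters. In EHMT1 they occurred 4 times, in part overlapping each other. Across all promoters with these letters, 83.3% were overlapped by a control peak and 82.2% by a siRNA peak, against 48.3% and 49.4% of all 22175. Of the 6 promoters here, those of DNMT1, SUV39H2 and CBX5 were overlapped in both lists. That of EHMT1 was overlapped in the control list alone, and those of UHRF1 in neither. This internal DNMT3B promoter held 3 CpG, the median of all promoters was 21 and that of the 20 promoters was 26. Of 3214 promoters with as few CpG as this one or fewer, 6.57% were overlapped by a control and 8.56% by a siRNA peak. The DNMT3B promoter itself had 147 bases under a siRNA peak and none under a control peak. CCAAT was in 8 of the 20 promoters (34.7% of all), GGGCGG in 13 (56.3%), CACGTG in 4 (8.34%) and AAGATGGCG in 1, that of SUV39H2 (2.41%). CCGGAAG (12.8% of all) and TATAAA (9.47%) were in none. A match of letters is a description and not a bound site.

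The first comparison asks where CHAF1A signal lay on these genes with and without the knockdown. The control list had 65 peaks in the 10 windows and the siRNA list 75, of which 27 and 31 had a −log10 q of at least 10. In the control list 8 genes had a peak within 1 kb of a start and in the siRNA list 9, while UHRF1 had none in either. Among 15842 protein-coding genes with a start in the RefSeq promoter table, 62% had such a start peak in the control list and 64.9% in the siRNA list. EHMT2 was the only one of the 10 with a start peak in the siRNA list alone, a class of 7.13% of genes, and none had one in the control list alone, a class of 4.2%. The start base itself lay inside a peak in 6 of the 10 genes in each list, against 49% and 48.7% of genes. The median fold enrichment of the strongest start peaks was 7.26 over 8 members in the control list and 5.71 over 9 in the siRNA list. Over all genes with a start peak it was 5.69 and 4.64. The sets of genes differ between the lists, so these medians do not give a change at the same genes. With 10 genes, a count of 8 or 9 is not far from the background shares.

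**Figure D1:**
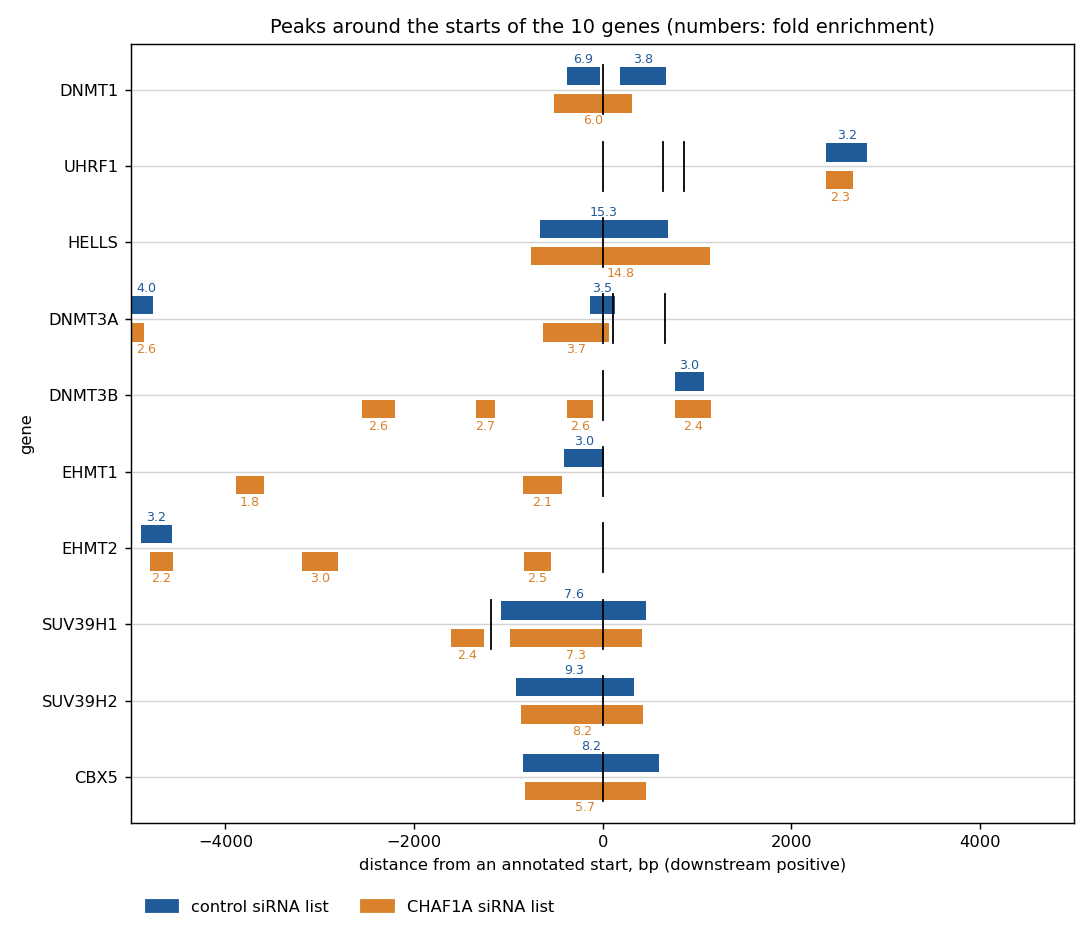
Peaks within 5000 bp of an annotated start of each gene, drawn in the direction of transcription; the x axis is the distance in bp, vertical lines are annotated starts, upper bars are control peaks, lower bars are siRNA peaks, and numbers are fold enrichments. HELLS, SUV39H1, SUV39H2 and CBX5 had broad peaks over a start in both lists, UHRF1 had none within 1 kb, and EHMT2 had one in the siRNA list alone.

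HELLS, the remodeller, had the strongest peak of the 10 genes (GRCh38, chromosome 10, gene 94545788 to 94613905). The control peak spanned 94545124 to 94546476, was 1353 bp wide and had a fold enrichment of 15.3, above that of 98.8% of genes with a control start peak. The siRNA peak covered it on both sides (94545030 to 94546927, 1898 bp, fold enrichment 14.8). Both summits lay 97 bp before the start.

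The summit pileup at HELLS was 833 reads over a local background of 53.5 in the control list, and 1433 reads over 96.0 in the siRNA list. Divided by the genome background, the siRNA value was 1.29 times the control value, with a 95% interval of 1.18 to 1.40 that covers counting error only. By this measure 95.7% of the 9154 genes with a start peak in both lists had a lower ratio. By fold enrichment the order was the other way, with a log2 ratio of −0.05, because the local background of the siRNA list at HELLS was also high. The rest of HELLS had no control peak and 2 weak siRNA peaks, with fold enrichments of 2.48 and 2.58.

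DNMT1, the maintenance methyltransferase (chromosome 19, 10133346 to 10194953, minus strand), had 2 control peaks on either side of its start. The one before the start (10194979 to 10195336) had a fold enrichment of 6.90 (−log10 q 40.9), and the one past it (10194281 to 10194775) had 3.80. In the siRNA list 1 peak of 830 bp (10194638 to 10195467, fold enrichment 6.02) spanned the start and overlapped both. The main summits of the lists were 1 bp apart, with 85 control and 91 siRNA reads, a ratio of 0.800 (0.589 to 1.09) after division by the genome background. That interval holds 1, so no difference was detectable at this depth. A further 5 control and 5 siRNA peaks lay in the gene, with fold enrichments of 2.49 to 3.49 and 2.14 to 3.72.

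UHRF1, the reader of half-methylated DNA (chromosome 19, 4903080 to 4962154, 3 annotated starts between 4909501 and 4910367), had no peak within 1 kb of a start, nor at its 5′ boundary. Its promoters held 36 to 46 CpG. Of the 3623 protein-coding promoters with at least 36 CpG, 62.8% were overlapped by a control peak and 60.7% by a siRNA peak. A class of 30.9% of genes had no start peak in either list.

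The nearest UHRF1 peaks began 1503 bp past the last start. The first (4911870 to 4912305 in the control list and 4911870 to 4912158 in the siRNA list) had fold enrichments of 3.25 and 2.30. Its pileups were 74 and 60 reads, a ratio of 0.606 (0.424 to 0.864). The second and strongest (4914873 to 4915370 in the control list) had fold enrichments of 4.69 and 4.21, with 95 and 100 reads and a ratio of 0.787 (0.588 to 1.05). Both sites also lie within ARRDC5 (4890437 to 4916820). The 3 kb alternative for the start window took in the first of these sites, so that UHRF1 then counted as having a start peak in each list.

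DNMT3A, a de novo methyltransferase (chromosome 2, 25227874 to 25342590, minus strand), has 2 groups of annotated starts. The group at the 5′ end of the gene had a control peak at 25342464 to 25342728 (fold enrichment 3.48, 50 reads) and a wider siRNA peak at 25342520 to 25343220 (fold enrichment 3.71, 73 reads). DNMT3A was the only gene of the 8 with a start peak in both lists whose fold enrichment was higher in the siRNA list, but the pileup ratio of 1.09 (0.751 to 1.60) held 1. The group near 25252131 to 25252315 had no peak within 1 kb in either list.

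DNMT3A had 5 control and 8 siRNA peaks elsewhere. Its strongest control peak (25228870 to 25229041, fold enrichment 4.20) lay near the 3′ end and was not shared. The strongest siRNA peak apart from the start (25273807 to 25274137, fold enrichment 3.54) had no control peak under it.

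DNMT3B, the other de novo enzyme (chromosome 20, 32762385 to 32809356), had weak peaks around its annotated start at 32779852. That start lies inside the gene, and none was listed at the 5′ end. A control peak at 32780622 to 32780921 (fold enrichment 2.96, 44 reads) was shared with a siRNA peak at 32780614 to 32780996 (2.37, 51 reads). The siRNA list had 3 more peaks, from 32777297 to 32779748, with fold enrichments of 2.57, 2.72 and 2.61, and only the last was within 1 kb of the start. No peak of either list held the start base. Counts over starts take the strongest start peak of each list, so the DNMT3B ratio of 0.934 (0.617 to 1.42) compares different peaks. A siRNA peak at 32763275 to 32763696 (2.67) lay near the 5′ boundary of the gene and had no control counterpart. The strongest DNMT3B peaks were inside the gene, at 32790204 to 32790469 in the control list (fold enrichment 4.30) and at 32804827 to 32805130 in the siRNA list (4.32), and both were shared.

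EHMT1 (chromosome 9, 137619005 to 137836127) had the most peaks of the 10 genes, 29 in the control list and 27 in the siRNA list. At its start the lists differed in place. The control peak (137618599 to 137619014, fold enrichment 3.02, 95 reads) held the start base, and the siRNA peak (137618161 to 137618571, fold enrichment 2.05, 103 reads) ended 434 bp before it. A gap of 27 bp separated the peaks, so they were not shared. The ratio of their pileups was 0.810 (0.607 to 1.08), which holds 1.

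Both EHMT1 start peaks stood on a high local background, 30.8 reads in the control list and 49.7 in the siRNA list, and so had low folds for their pileups. Starts of the long noncoding gene ARRDC1-AS1 lay 110 and 476 bp from the EHMT1 start, on the other strand, and a start peak there cannot be told apart between the 2 genes. The siRNA list had a further peak at 137615114 to 137615417, at the ends of ARRDC1 and ARRDC1-AS1, with the lowest fold enrichment in the 10 windows, 1.77.

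Inside EHMT1 stood 2 narrow peaks that exceeded its start in both lists. One, with its control summit 50452 bp past the start (137669360 to 137669578, 219 bp), had fold enrichments of 8.18 in the control list and 9.49 in the siRNA list, with 158 and 258 reads. The other, at 102226 bp (137721131 to 137721334, 204 bp), had 7.02 and 8.68, with 172 and 277 reads. Their ratios after division by the genome background were 1.22 and 1.20, with intervals that begin at 0.997 and 0.992 and hold 1. Their widths of 204 to 250 bp were under the median of all peaks, 327 and 340 bp, while their −log10 q of 82.5 to 155 was far above the medians of 9.82 and 8.50. Over the gene 20 control and 19 siRNA peaks were shared, with 20 overlapping pairs, and every pair's ratio interval held 1.

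**Figure D2:**
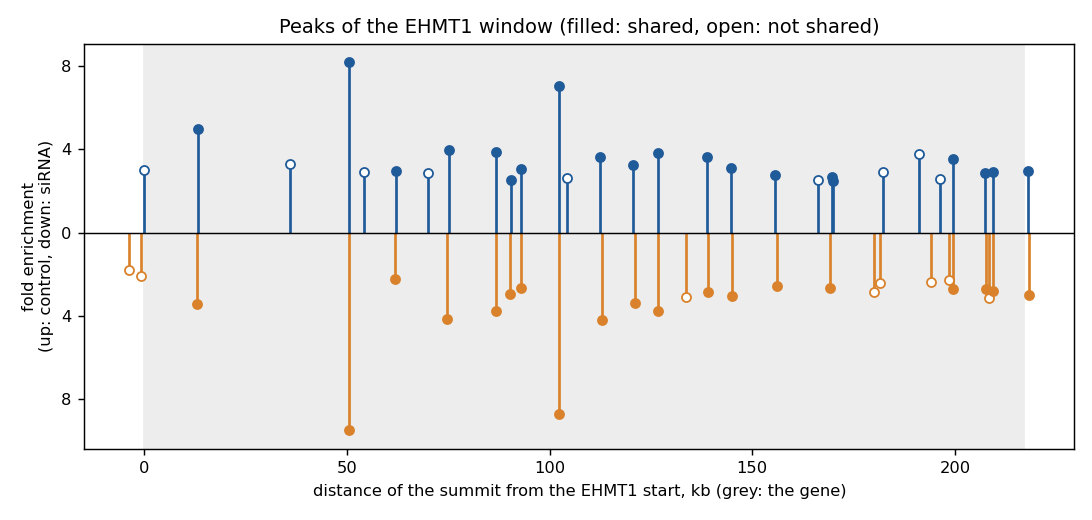
Peaks of the EHMT1 window by the distance of their summit from the start (x axis, kb) and their fold enrichment (y axis), with the control list upward, the siRNA list downward and the gene in grey. The 2 tall shared peaks 50452 and 102226 bp past the start had folds of 7.02 to 9.49, above the start peaks at 3.02 and 2.05.

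EHMT2, the partner of EHMT1 (chromosome 6, 31879759 to 31897698, minus strand), had no control peak within 1 kb of its start. A siRNA peak lay at 31898246 to 31898533, 548 bp before the start, with a fold enrichment of 2.46, 54 reads and a −log10 q of 6.68. A start of C2, a complement gene, lies 85 bp from that of EHMT2 on the other strand, so the peak is near both. Under a −log10 q of at least 10 neither list had a start peak at EHMT2.

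The window of EHMT2 had 4 control and 6 siRNA peaks. The strongest control peak (31902261 to 31902595, fold enrichment 3.17) lay 4563 bp before the EHMT2 start, near the start of ZBTB12 at 31902086. The strongest siRNA peak was inside the gene at 31886906 to 31887532 (3.34), over a control peak of 2.47 at 31887322 to 31887588. A siRNA peak at 31900501 to 31900886 (3.03), near a second start of C2 at 31900999, had no control counterpart.

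SUV39H1 (chromosome X, 48695554 to 48709016) has 2 annotated starts, 48695554 and 48696734. A broad peak over the second was the widest control peak of the 10 genes (48695655 to 48697194, 1540 bp, fold enrichment 7.62), and its siRNA counterpart spanned 48695756 to 48697154 with 7.31. Their summits were 1 bp apart. The pileups were 212 and 298 reads, a ratio of 1.05 (0.878 to 1.26). A weak siRNA peak at 48695122 to 48695480 (2.39), before the first start, was not shared. Inside the gene a shared site at 48701965 to 48702840 in the control list had 2.92 and 2.75.

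SUV39H2 (chromosome 10, 14878866 to 14904315) had 1 broad start peak in each list, at 14877942 to 14879196 in the control (fold enrichment 9.31) and 14877997 to 14879295 in the siRNA list (8.20). The summits lay at the same base, with 180 and 249 reads and a ratio of 1.03 (0.850 to 1.26). The start of the divergent transcript SUV39H2-DT is 207 bp away and under the same peak. The other SUV39H2 peaks, 2 per list, had fold enrichments of 2.67 to 3.22, and none was shared. For both SUV39H genes the lists thus gave pileups that counting error does not separate.

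CBX5 (chromosome 12, 54230942 to 54280122, minus strand) had the start whose summit pileup differed most between the lists. The control peak (54279527 to 54280967, 1441 bp) had a fold enrichment of 8.23 and 249 reads, and the siRNA peak (54279664 to 54280950, 1287 bp) had 5.71 and 190 reads. After division by the genome background the siRNA value was 0.570 times the control value (0.470 to 0.692), and 7.54% of genes with a start peak in both lists had a lower ratio. The summits were 784 bp apart, so the ratio of 0.570 compares different summits. Relative to the start, the control summit was at 295 bp, inside CBX5, and the siRNA summit at −489 bp. HNRNPA1 (54280726 to 54287087), a gene of an RNA-binding protein, begins under the same peak, and signal of the 2 genes cannot be told apart there.

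The second group of CBX5 starts had peaks at 54259247 to 54259952 in the control list and 54259248 to 54259778 in the siRNA list, with fold enrichments of 6.69 and 5.79. The summits coincided, with 113 and 114 reads, and the ratio was 0.754 (0.576 to 0.987). A control peak past the 3′ end of CBX5 (54229678 to 54229969, fold enrichment 4.05) was not shared, and the strongest siRNA peak away from the starts (54227551 to 54227911, 2.78) was.

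**Figure D3:**
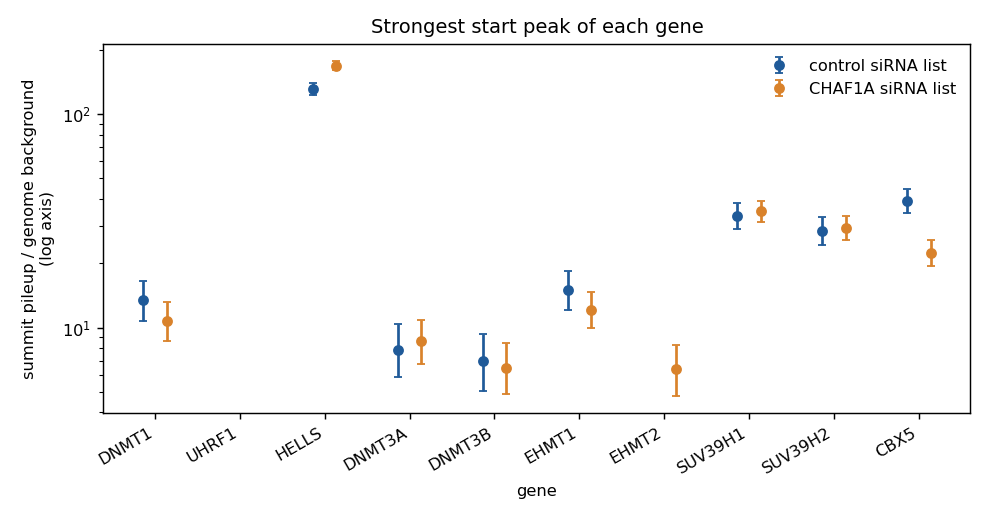
Summit pileup of the strongest start peak of each gene divided by the genome background of its list (y axis, log scale), for the control list and the CHAF1A siRNA list, with exact 95% Poisson intervals that cover counting error only. HELLS stood highest in both lists, with 833 and 1433 reads, and CBX5 was the gene with clearly separated intervals in the other direction, with 249 and 190 reads. The CBX5 summits were 784 bp apart, and the EHMT1 and DNMT3B peaks did not overlap between the lists.

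The second comparison asks whether the starts as a group differed between the lists. In 7 of the 8 genes with a start peak in both lists the fold enrichment was lower in the siRNA list, and so it was in 80.1% of the 9154 genes with a start peak in both. Among those 7, the EHMT1 and DNMT3B ratios compare strongest start peaks that did not overlap. The median log2 ratio of fold enrichment, siRNA over control, was −0.18 in the 8 genes and −0.21 in all. With pileups over the genome background, 4 of the 8 were lower, beside 73.8% of all, and the median log2 ratio was −0.02 against −0.24 in all. Only CBX5 was lower by at least 1.5 times, a class of 19.7% of genes, and none of the 8 was higher by that factor, a class of 0.939%. The CBX5 ratio compares summits 784 bp apart. By fold enrichment the members were near the shares of all genes, and by pileup fewer of the 8 were lower; neither difference was tested.

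Sharing was counted where peaks overlapped by at least 1 bp. Of the 65 control peaks 45 (69.2%, 95% exact binomial interval 56.6 to 80.1) were overlapped by a siRNA peak, against 64.5% of the control peaks in windows of the 15842 protein-coding genes with an annotated start. In the other direction, 42 of the 75 siRNA peaks met a control peak (56.0%, interval 44.1 to 67.5), against 49.9%. Both backgrounds lie inside the intervals. With an overlap of at least 50% of both peaks, 44.6% of the control and 38.7% of the siRNA peaks were shared. The same was not computed over all genes, so this drop cannot be called particular to the members. Start peaks were shared in 9 of 10 control and 8 of 12 siRNA cases (90.0% and 66.7%), where genes with an annotated start had 87.2% and 80.4%. Away from starts 36 of 55 control and 34 of 63 siRNA peaks were shared (65.5% and 54.0%), where the same genes had 56% and 40.9%. EHMT1, whose start peaks were unshared, gave 20 of these 36 and 19 of these 34, out of 28 and 26 such peaks. Sharing away from starts was not computed without EHMT1, so the excess over all genes cannot be called a trait of the group.

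EHMT1 alone held 29 of the 65 control and 27 of the 75 siRNA peaks. Without it, 25 of 36 control (69.4%) and 23 of 48 siRNA peaks (47.9%) were shared. The highest fold enrichment of an unshared peak was 4.20 in the control list and 3.81 in the siRNA list, and the median of the unshared peaks was 2.88 and 2.67, beside 3.45 and 3.11 for the shared ones. Over windows of protein-coding genes with a start these medians were 3.28 and 2.91, beside 4.12 and 3.62. With a −log10 q of at least 10, 5 of 27 control and 8 of 31 siRNA peaks of the members were unshared with peaks of any q. In the windows of all those genes, 3130 of 19639 control and 3952 of 20809 siRNA peaks were. With both lists held to this q, 16 of 27 control and 15 of 31 siRNA peaks of the members were shared, a count not made over all genes. EHMT1 had 9 unshared control and 8 unshared siRNA peaks. DNMT3A and DNMT3B each had 6 unshared of 9 siRNA peaks, against 3 of 6 and 2 of 5 unshared control peaks. At any q, 24700 of 49305 siRNA and 13848 of 38975 control peaks in windows of all those genes were unshared. The folds of the unshared siRNA peaks were 2.38 to 3.54 in DNMT3A and 2.57 to 3.81 in DNMT3B.

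The shared sites formed 45 overlapping pairs. In 29 the fold enrichment was lower in the siRNA list (72.5% of all 47987 pairs of the lists), and in 40 the interval of the pileup ratio held 1. It lay above 1 in 2 pairs, at HELLS and at the weaker control start peak of DNMT1, which the siRNA peak joined to the stronger one. At DNMT1 the siRNA pileup is that of a summit 387 bp away, at the stronger site, so this ratio of 1.45 compares different summits. Against the stronger control peak the same siRNA peak gave 0.800. The interval lay under 1 in 3 pairs, both CBX5 starts and the first UHRF1 site. At the CBX5 start with a ratio of 0.570 the summits were 784 bp apart. The median log2 pileup ratio of the 45 pairs was −0.04, beside −0.19 for all pairs. Summits of the start pairs were a median of 1 bp apart and those of the other pairs 134 bp.

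**Figure D4:**
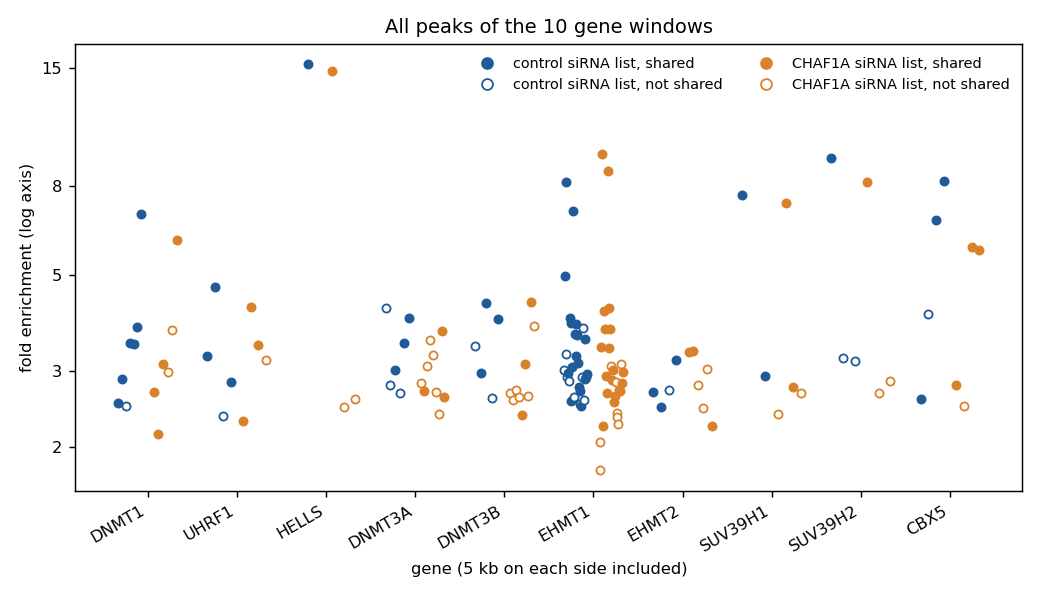
Fold enrichment (y axis, log scale) of all 65 control and 75 siRNA peaks by gene, with 5 kb on each side of the gene; filled points overlap a peak of the other list and open points do not. The highest unshared peaks had folds of 4.20 in the control list and 3.81 in the siRNA list, and the highest points, at HELLS, were shared.

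Peak density differed widely among the genes. The median over the 15842 protein-coding genes with an annotated start was 0.473 control and 0.604 siRNA peaks per 10 kb of window. EHMT2, at 1.43 and 2.15, had the densest control and siRNA peaks of the 10 genes, and EHMT1 had 1.28 and 1.19. HELLS had the lowest density in both lists, 0.128 and 0.384, where 1 start peak was the only one in the control list. The share of the window under peaks was highest in SUV39H1, at 10.3% in the control list and 14.6% in the siRNA list.

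The wider pathway was described from 3 lists of 48 genes, of which 44 had an annotated start. A start peak was present in 40 of them in the control list and 41 in the siRNA list, beside 62% and 64.9% of all genes with a start. Of 16 DNA methylation partners, readers and erasers, all had one in the control list and 15 in the siRNA list, with USP7, the deubiquitinase that stabilises UHRF1 and DNMT1, in the control list alone (fold enrichment 3.60). Of 17 H3K9 methylation partners, readers and other writers, 14 had one in the control list and 15 in the siRNA list, with WIZ, a zinc finger partner of EHMT1 and EHMT2, in the siRNA list alone (2.31). Of 11 H3K9 demethylases, 10 had one in the control list and all in the siRNA list, which added PHF2 (4.07). PRDM2 and KMT5B had none in either list; these 2 are named after their values were seen.

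By −log10 q, the strongest control start peaks of the wider lists were at UHRF2, the paralogue of UHRF1, at KMT5C, which methylates lysine 20 of histone H4 in heterochromatin, and at SETDB2, an H3K9 methyltransferase. UHRF2 had fold enrichments of 15.9 in the control list and 14.4 in the siRNA list, close to HELLS and unlike UHRF1 itself. KMT5C had 7.48 and 6.19, and SETDB2 10.4 and 9.67. Of the 39 wider genes with a start peak in both lists 34 had a lower fold in the siRNA list, and 9 (23.1%) had a pileup ratio lower by at least 1.5 times, beside 19.7% of all genes. None was higher by that factor. The median log2 pileup ratio of these 39 was −0.41, and the difference from the 8 members at −0.02 was not tested.

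**Figure D5:**
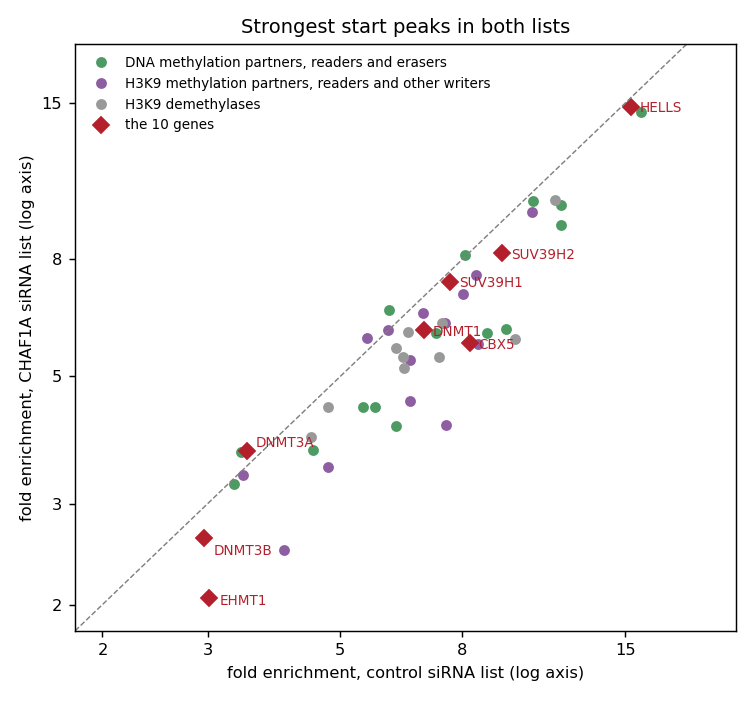
Fold enrichment of the strongest start peak in the control list (x axis) and the CHAF1A siRNA list (y axis), both log scales, for genes with a start peak in both lists; diamonds are members and circles the 3 wider lists, and the dashed line marks equal values. Most points lie under the line, 34 of 39 for the wider lists and 7 of 8 for the members, and HELLS lies near the upper end at 15.3 and 14.8. The EHMT1 and DNMT3B diamonds compare peaks that did not overlap.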

How the data were processed

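CUT&Tag of CHAF1A was analysed from the deposited peak lists, 1 for each group of 2 samples; no source used here says whether the 2 samples were pooled. The submitters' processing notes name MACS2 2.1.2, deepTools 3.4.3, Bowtie2 2.2.5 and fastp 0.20.1 as tools, and hg38. Each deposited peak has a fold enrichment (the ratio of its summit to background), p and q as −log10 values, and a score, a whole number that was not used. The lowest deposited −log10 p was 5.00. Peaks on other sequences (868 control, 886 siRNA) were left out.

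Pileup and background were solved from fold, taken as (pileup + 1)/(background + 1), and p, taken as the Poisson tail. The solution gave a whole pileup in 99.982% of control and 99.987% of siRNA peaks, within 0.05 reads, and the method was tested on simulated data. The most frequent background of a list was taken as that of the genome. Ratios of pileups have exact binomial 95% intervals, and shares exact Clopper-Pearson intervals; both cover counting error only.

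Starts and strands came from the RefSeq promoter table, which held 15842 of the 20037 protein-coding genes and all members. A start peak lies within 1 kb of a start, and the strongest by −log10 q represents a gene. Named peaks are all start peaks and the strongest others; of the wider lists, the 3 strongest control start peaks and the genes with a start peak in 1 list only; other peaks and genes were named after their values were seen. The members and lists were chosen with earlier results of these data known. Computation used matplotlib 3.10.9, scipy 1.17.1, pandas 2.3.3 and numpy 2.4.6 under Python 3.11.15.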

Additional observations from a re-analysis of the deposited data

How the results depend on the processing

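The 9 results were recomputed under other settings, 1 of them chosen after seeing the data, in which the gene's 5′ boundary also counted as a start. Of 61 alternative values 54 stayed within 1.5 times the reported count, within the 95% interval of the reported share, or within the spread of the members for the median log2 ratio. That ratio was −0.18 by fold enrichment and −0.02 by pileup over the genome background. Under 50% reciprocal overlap, 44.6% of control and 38.7% of siRNA peaks were shared, with no such share computed over all genes. With only 1 kb on each side of a start, 10 control and 12 siRNA peaks were left, and 90.0% of the control peaks were shared. With a −log10 q of at least 10, 27 control and 31 siRNA peaks were left, and 7 and 6 members had a start peak. The share of all genes with a start peak was not computed at this q, so the drop cannot be judged against it. With siRNA peaks kept only if they pass at the control depth, 90160 of 97653 remained, and 8 and 9 members still had a start peak. The weak start peaks of DNMT3B and EHMT2, and the siRNA peak of EHMT1, were under a −log10 q of 10. No paired analysis was possible because each group has 1 peak list that does not keep its 2 samples apart, and no replicate could be left out for the same reason. Depth limits the comparison at weak sites: with 44 control and 55 siRNA reads, the interval at DNMT3B ran from 0.617 to 1.42.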
